A study of Mus musculus with 6 samples.

Results

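Sox10, Erbb3, Foxd3 and Ngfr, 4 genes that mark the glial branch of the neural crest, were each measured at higher intensity in maxillary arch mesenchyme of mouse embryos lacking both Lhx6 and Lhx8 than in wild type. Their 5 probe sets are all those whose gene symbol in the deposited significance table equals 1 of the 4 names, out of 1061 probe sets in that table and 45101 on the array. That table kept probe sets at an unadjusted p of 0.05 and a fold of 1.25 on the 6 arrays whose raw intensities it holds, so the difference between genotypes, and the absence of any other probe set of these genes, follow from how the table was made. The group differences below are therefore a description.

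The double mutants were Lhx6-/-; Lhx8-/- embryos and the embryos they were set against were labelled wild-type, with 3 arrays from each genotype. All embryos were female, matched by somite count, at embryonic day 10.5. Their mixed background combined CD-1, 129 and C57BL/6J. Mesenchyme of the maxillary arch was laser-dissected from the territory where both genes are normally active, and the RNA was amplified before hybridisation to Affymetrix mouse arrays. The labels do not say which part of each gene was removed, and no probe set used here is named Lhx6.

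Neural crest cells leave the dorsal neural tube and, in the head, supply most mesenchyme of the arches as well as the glia of the cranial nerves. Foxd3 and Sox10 encode transcription factors of early and migrating crest, and Sox10 stays on in the glial and melanocyte lineages. Erbb3 encodes the receptor through which neuregulin from axons sustains Schwann cell precursors, the glial progenitors that travel along nerves, and Ngfr encodes the p75 neurotrophin receptor, present on migrating crest, immature glia and some sensory neurons. Crest cells that become arch mesenchyme are known to turn Sox10 and Foxd3 off.

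The deposited files hold a pair of value sets, both linear intensities. The significance table has 6 columns that it calls raw, of which 5 match a sample title and 1 is a wild-type array with a number that no title bears, here the unnumbered wild type. The value table has wild type 1 in its place, and whether these are the same embryo is not known. The value table covers every probe set on a different scale, with a median of 19 to 20.5 on the 6 arrays. Double mutant 1 stood apart before any gene was considered: the Actb control probe sets read 24.8 times brighter at the 3' end than at the 5' end there, and at most 1.85 times elsewhere. For Gapdh this ratio was 17.8 on that array and at most 1.6 elsewhere. Its log2 values correlated at 0.606 to 0.679 with the other arrays, which correlated at 0.946 to 0.976 among themselves. Lhx8, a targeted gene, had raw intensities of 5177, 2711 and 3177 in double mutants 1, 2 and 4 and 8976, 9493 and 8628 in wild types 4, 5 and the unnumbered one. In the value table double mutant 1, at 2036, lay above the lowest wild type, at 1992, so the groups overlapped there. Whether this probe set lies in the deleted part is not stated. The intensities of Sox10, Erbb3, Foxd3 and Ngfr are given by array below, so that double mutant 1 can be set aside for them. Many values of other genes are means, fold changes or sums that include it. The labels do not say whether embryos shared a litter, and the number of arrays limits the precision of every value.

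Sox10, the transcription factor required for peripheral glia, had the largest fold of the 4 genes in the deposited table. Raw intensities of its probe set, 1451689_a_at, were 95.7, 38.7 and 45.3 in double mutants 1, 2 and 4, against 20.2, 21.3 and 19.5 in wild types 4, 5 and the unnumbered one. The groups did not overlap, the wild types lay within 2 units of each other, and double mutant 1 was well above the other mutants. The means were 59.9 ± 31.1 in double mutants and 20.3 ± 0.9 in wild type (SD, n = 3 each), a log2 fold change of 1.44. Without double mutant 1 the log2 fold change was 1.04, below the 1.13 of Erbb3 and the 1.26 of Ngfr 1454903_at. The first place of Sox10 thus rested on that array. The authors' deposited table gives 2.72-fold higher with p = 0.0234, uncorrected for the number of probe sets. The file aligns this probe set to chr15:78985361-78994226 on the minus strand, on a build it does not name, and the suffix marks probes shared by transcripts of 1 gene.

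Foxd3 is the forkhead factor of early crest. Its probe set, 1422210_at, had raw intensities of 17.3, 13.2 and 20.3 in double mutants 1, 2 and 4 and 10.1, 10.3 and 10.6 in wild types 4, 5 and the unnumbered one. All 3 mutants were above all wild types, but the lowest mutant was 1.25 times the highest wild type. The means were 16.9 ± 3.56 in double mutants and 10.3 ± 0.246 in wild type (SD, n = 3 each), a log2 fold change of 0.69. The deposited table of the authors lists it as 1.61-fold higher with p = 0.0193. The file places it at chr4:99322989-99325313 on the plus strand, again with no build named.

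Erbb3, the neuregulin receptor, was read by 1434606_at at chr10:128004584-128005541 on the minus strand, on the file's unnamed build. Its raw intensities were 64.9, 92.3 and 129 in double mutants 1, 2 and 4 and 50, 50.9 and 48.5 in wild types 4, 5 and the unnumbered one. The wild types were nearly equal, double mutant 4 was the highest array, and double mutant 1 was the one nearest to wild type. Means were 95.5 ± 32.4 in double mutants and 49.8 ± 1.18 in wild type (SD, n = 3 each), a log2 fold change of 0.88, or 1.13 without double mutant 1. In the authors' deposited table it is 1.84-fold higher with p = 0.0374, the largest p among the 5 probe sets.

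Ngfr, the p75 receptor, was listed through 2 probe sets that lie next to each other without overlap. Of these, 1454903_at aligns to chr11:95430141-95431093 on the minus strand, and 1450177_at to chr11:95431183-95449016, upstream of it on that strand and across the body of the gene. The build is not named for either. At 1454903_at the raw intensities were 328, 477 and 438 in double mutants 1, 2 and 4 and 206, 176 and 190 in wild types 4, 5 and the unnumbered one, with means of 414 ± 77 and 191 ± 14.7 (SD, n = 3 each). Every mutant was at least 1.6 times the highest wild type, and double mutant 1 was the lowest mutant. At 1450177_at they were 99, 66.5 and 52 in double mutants 1, 2 and 4 and 28.4, 26.1 and 31.8 in wild types 4, 5 and the unnumbered one. Here double mutant 1 was the highest mutant, so the 2 probe sets of this gene ordered the mutants differently, although both placed all 3 above wild type. The log2 fold changes were 1.11 and 1.29. The authors' deposited table gives folds of 2.15 with p = 0.00322 and 2.44 with p = 0.0104. All 3 mutants changed rank between the probe sets, and double mutant 1 went from lowest to highest. That array is the one with the raised 3' to 5' ratio, and the part of this ratio in the difference between the probe sets was not tested.

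**Figure D1:**
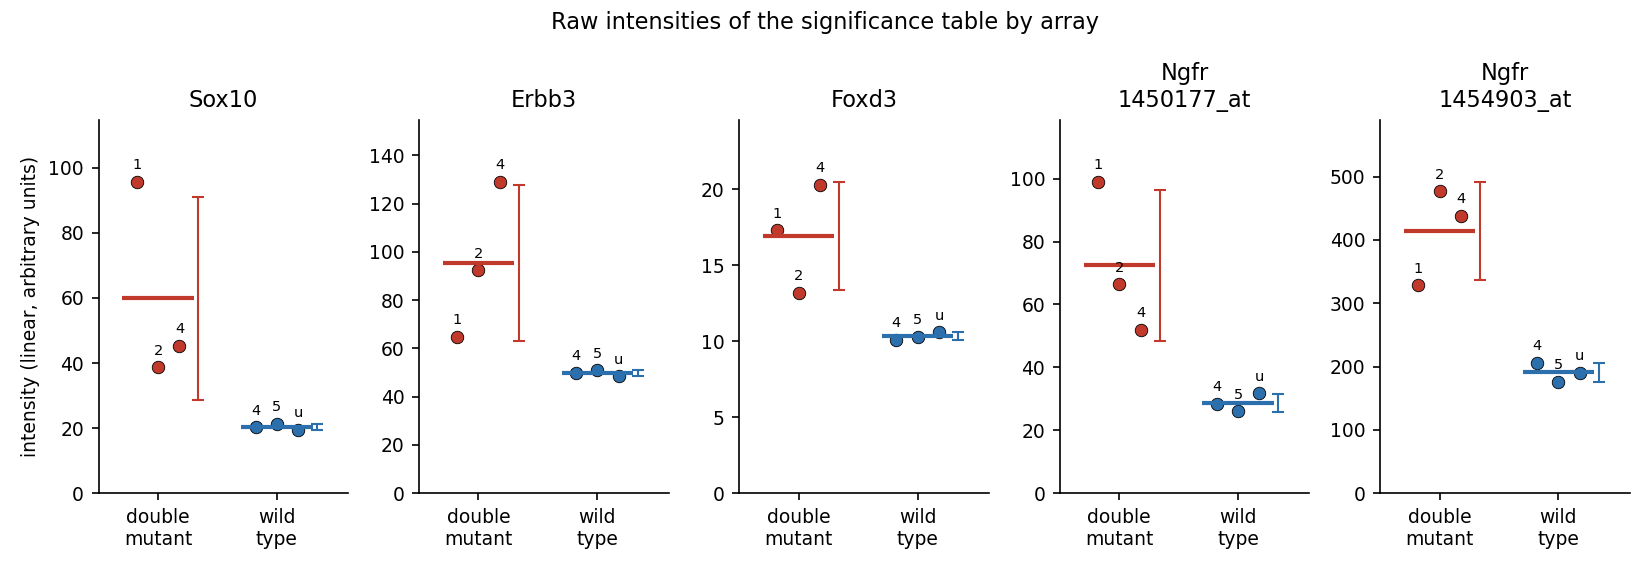
Raw intensities (linear, arbitrary units, axes from 0) of the 5 probe sets, double mutants in red at the left of each panel and wild types in blue, with array numbers beside the points (u, the unnumbered wild type), horizontal bars for means and error bars for SD (n = 3 each). In each panel all 3 mutants lie above all 3 wild types, and the array that is highest among the mutants is double mutant 1 for Sox10 and Ngfr 1450177_at, 2 for Ngfr 1454903_at and 4 for Erbb3 and Foxd3.

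All 5 probe sets are listed as higher, as were 1.43% of the 45101 probe sets on the array. The 3 criteria of the series' design text, a fold over 1.5, an unadjusted p under 0.05 and an intensity averaging over 100 in either genotype, were met by 113 probe sets that were higher, 0.251% of the array. Of the 5, Ngfr 1454903_at met them. The other 4 passed on fold and p but not on intensity: the Erbb3 mutant mean of 95.5 stood just under the limit, and those of Sox10, Foxd3 and Ngfr 1450177_at were further below it. Most entries on the higher side were as dim, since 433 of the 645 probe sets listed as higher had means at or under 100 in both groups. The median log2 fold over those 645 was 0.49, and the 5 probe sets had 0.69 to 1.44.

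The DNA just upstream of the 4 genes was looked up, and it is shown for Foxd3, which codes for a factor, and Ngfr, which codes for a receptor. The sequences are the 250 bases before the gene start, 5' to 3' on the gene's strand, from RefSeq on GRCm38.p6, at chr4:99656049-99656298 on the plus strand for Foxd3 and chr11:95587699-95587948 on the minus strand for Ngfr. Of the 4 genes, these 2 matched an entry, and Sox10 and Erbb3 did not. Capitals mark every match, on either strand, to 5 motifs: TAATTA as a homeodomain core, ACAAAG as a SOX core, TAAACA as a forkhead core, GGGCGG as a GC box and CACGTG as an E-box.
Foxd3: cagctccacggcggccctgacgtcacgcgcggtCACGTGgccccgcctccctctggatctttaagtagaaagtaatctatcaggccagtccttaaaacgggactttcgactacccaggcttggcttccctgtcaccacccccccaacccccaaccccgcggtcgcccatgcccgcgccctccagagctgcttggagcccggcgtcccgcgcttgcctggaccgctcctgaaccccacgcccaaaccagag
Ngfr: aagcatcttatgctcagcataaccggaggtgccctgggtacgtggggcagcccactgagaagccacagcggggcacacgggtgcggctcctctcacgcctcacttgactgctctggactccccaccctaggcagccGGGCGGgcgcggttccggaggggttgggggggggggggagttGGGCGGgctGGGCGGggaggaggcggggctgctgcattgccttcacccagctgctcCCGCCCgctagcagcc

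Ngfr held 4 GC boxes, the nearest from 16 to 11 bases before the start, and Foxd3 held 1 E-box from 217 to 212 bases before it. A GC box is in 32.7% of the 32851 promoter windows of the same length, and this E-box in 6.02%. Neither window held the homeodomain, SOX or forkhead letters, which are in 4.84%, 16.5% and 12% of windows. No motif overlapped another. The windows are rich in G and C, 65.6% for Foxd3 and 70.4% for Ngfr, against a median of 52.4% over all windows. A match is a run of letters and not a measured site.

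In the value table the same 5 probe sets again had all 3 double mutants above all 3 wild types, at lower levels. Sox10 had 23.9, 4.9 and 11.2 in double mutants 1, 2 and 4 and 0.4, 0.5 and 0.8 in wild types 1, 4 and 5. The wild-type values were among the dimmest of the array, above 2.98% to 9.25% of probe sets, while the mutant values were above 29.2% to 52.1%. Foxd3 had 7.9, 5.9 and 12.7 in double mutants 1, 2 and 4, against 1.9, 0.8 and 0.4 in wild types 1, 4 and 5, and every one of these was below its array's median.

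Erbb3 values were 24.8, 30.2 and 51 in double mutants 1, 2 and 4 and 11.3, 14 and 10.2 in wild types 1, 4 and 5, with the mutants above and the wild types below the median probe set of their arrays. For Ngfr, 1450177_at had 16.8, 14.5 and 7.6 in double mutants 1, 2 and 4 and 3.1, 5.8 and 1.4 in wild types 1, 4 and 5, all below the median. Its other probe set, 1454903_at, had 86.3, 142 and 144 in double mutants 1, 2 and 4 and 56, 45 and 56 in wild types 1, 4 and 5, all above it. These places describe the brightness of a probe set and do not rank genes by transcript number.

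**Figure D2:**
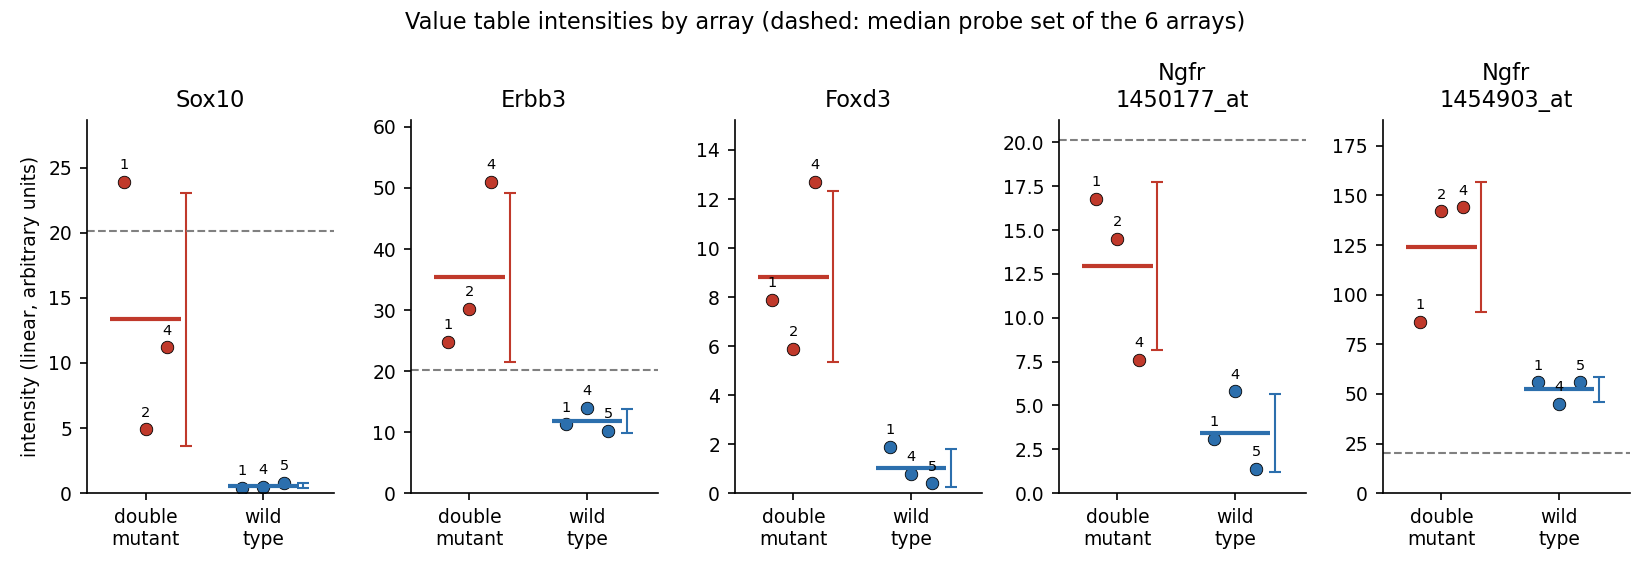
Value table intensities (linear, arbitrary units, axes from 0) of the same probe sets, double mutants in red at the left and wild types in blue, with array numbers, means (bars) and SD (error bars, n = 3 each). The dashed line is the median probe set of the arrays, which is above the drawn range for Foxd3; the Sox10 wild types sit at 0.4 to 0.8, and of the 5 probe sets Ngfr 1454903_at alone lies above the line in all 6 arrays.

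Separation of the groups is common in this table: in 6.72% of 45037 probe sets all 3 double mutants were above all 3 wild types. The log2(value + 16) scale shrinks the log2 fold change of dim probe sets. On this scale the log2 fold changes were 0.77 for Sox10, 0.85 for Erbb3, 0.54 for Foxd3, 0.57 for Ngfr 1450177_at and 1.01 for Ngfr 1454903_at. The limma fit took probe sets with a mean over 100 in either group, and 1 of the 5 passed this filter. It was Ngfr 1454903_at, at 124 ± 32.7 in double mutants and 52.3 ± 6.35 in wild type (SD, n = 3 each), and it passed through its mutant mean. Its log2 fold change of 1.01 ± 0.26 (SE) came with a limma p of 0.00693, unadjusted, and an adjusted limma p of 0.764. Of the 14446 probe sets tested, 0 passed an adjusted limma p of 0.05, which is 0%, and 131 higher ones, 0.907%, had an unadjusted p under 0.05. Without double mutant 1, 9 of 13904 probe sets passed adjustment. Ngfr 1454903_at then had 1.22 ± 0.14 (SE), with a limma p of 7.15e-05, unadjusted, and an adjusted limma p of 0.0636. With no filter either, tried after seeing the data, the adjusted limma p was 0.238. With any other array left out and the filter kept, it was 0.448 to 0.921.

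With no filter on intensity the other 4 probe sets could be tested as well, over 45037 probe sets. The unadjusted limma p was 0.0202 for Sox10, 0.00675 for Erbb3, 0.00889 for Foxd3, 0.0171 for Ngfr 1450177_at and 0.00325 for Ngfr 1454903_at, and the adjusted limma p was 0.857 for each. In this fit 2.18% of probe sets were higher at an unadjusted p under 0.05 and 0% passed adjustment. Since the 5 entered through a test in which at least 5 of these arrays took part, their small unadjusted p repeats that choice. With 3 arrays in each group the smallest two-sided p of an exact permutation test is 0.1.

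The 4 genes did not rank the mutant embryos in 1 order. In the raw intensities double mutant 1 was highest for Sox10 and Ngfr 1450177_at, lowest for Erbb3 and Ngfr 1454903_at, and in between for Foxd3. Relative to the wild-type mean, double mutant 1 stood 2.24 log2 units higher for Sox10 and 0.38 higher for Erbb3. Double mutant 4 stood 1.38 higher for Erbb3, the most of its 5 values, and 0.86 higher for Ngfr 1450177_at, the least. Double mutant 2 ranged from 0.35 for Foxd3 to 1.33 for Ngfr 1454903_at. Double mutant 1 is the array that stood apart on its control probe sets, and its part in these orders was not tested. With it set aside, double mutant 4 was above double mutant 2 for Sox10, Erbb3 and Foxd3. At both Ngfr probe sets double mutant 2 was the higher one.

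The value table gave the same ranking of the mutants for 4 of the 5 probe sets. The exception was Ngfr 1454903_at, where double mutants 2 and 4 were nearly level at 142 and 144. The tables share the 3 double mutants and wild types 4 and 5, so they are not independent. With 3 arrays a group and groups that were chosen to differ, no correlation over the 6 arrays is given. In these bulk samples more cells of a type and more RNA per cell cannot be told apart.

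**Figure D3:**
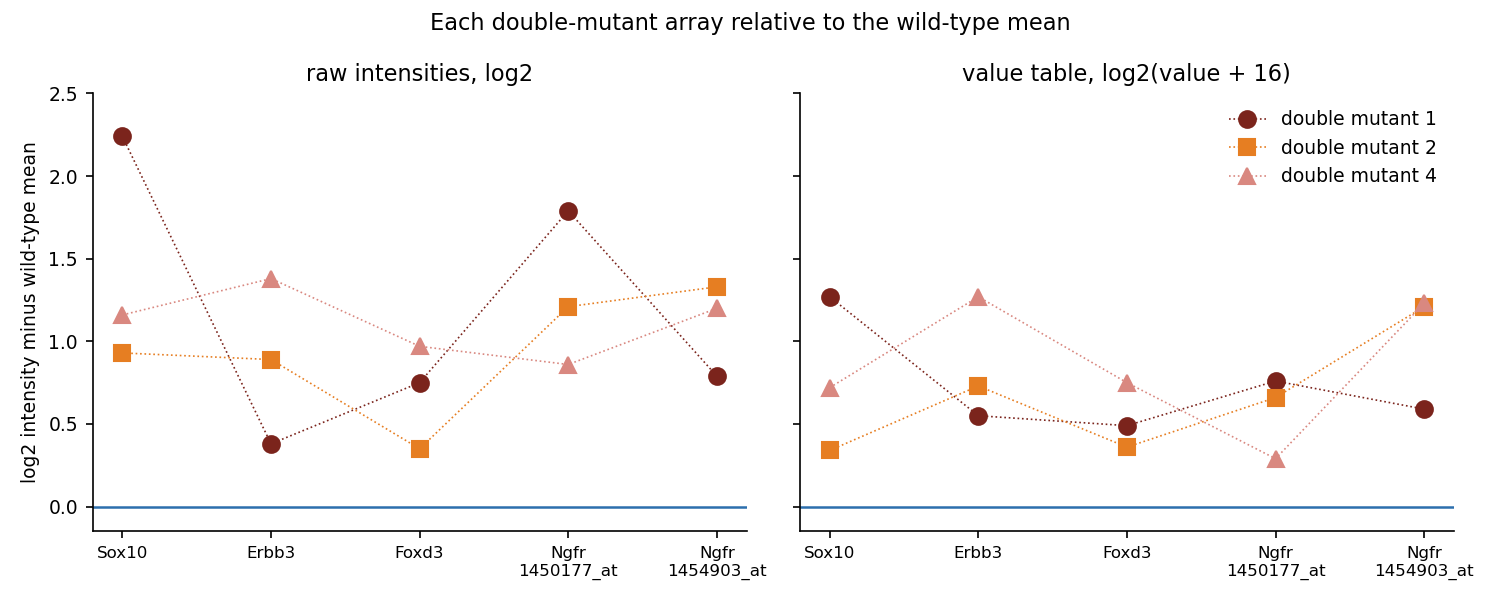
Log2 intensity of each double-mutant array minus the wild-type mean (line at 0) for the 5 probe sets, from the raw intensities (left) and from the value table as log2(value + 16) (right); the marker shape gives the array and dotted lines only join points of 1 array. The lines cross: in the raw intensities double mutant 1 is at 2.24 for Sox10 and at 0.38 for Erbb3, where double mutant 4 is at 1.38.

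The spread was wider among mutants than among wild types in the raw intensities of all 5 probe sets. The coefficient of variation was 18.6% to 52% over double mutants and 2.38% to 9.83% over wild types, with Sox10 at the upper end. Over double mutants 2 and 4 alone it was 11.1% for Sox10, 23.6% for Erbb3, 30% for Foxd3, 17.3% for Ngfr 1450177_at and 6% for Ngfr 1454903_at, so the place of Sox10 rested on double mutant 1. In the value table the same held for Sox10, Erbb3 and Ngfr 1454903_at, at 72.6%, 39.2% and 26.3% in double mutants and 36.7%, 16.5% and 12.1% in wild type. For Foxd3 and Ngfr 1450177_at the order was turned, at 39.6% and 36.9% in double mutants and 75.2% and 64.6% in wild type, where their values were 5.8 or less. No test of these spreads was made, and they were not compared with those of the other listed probe sets.

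Leaving out any 1 array kept each of the 5 higher in the double mutants. In the raw intensities the log2 fold change then ranged from 1.04 to 1.7 for Sox10, 0.64 to 1.13 for Erbb3, 0.55 to 0.86 for Foxd3, 1.04 to 1.5 for Ngfr 1450177_at and 0.99 to 1.26 for Ngfr 1454903_at. The lowest value came without double mutant 1 for Sox10 and Ngfr 1450177_at, without double mutant 4 for Erbb3 and Foxd3, and without double mutant 2 for Ngfr 1454903_at. In the value table the log2 fold change without double mutant 1 was 0.53 for Sox10 and 1.22 for Ngfr 1454903_at.

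**Figure D4:**
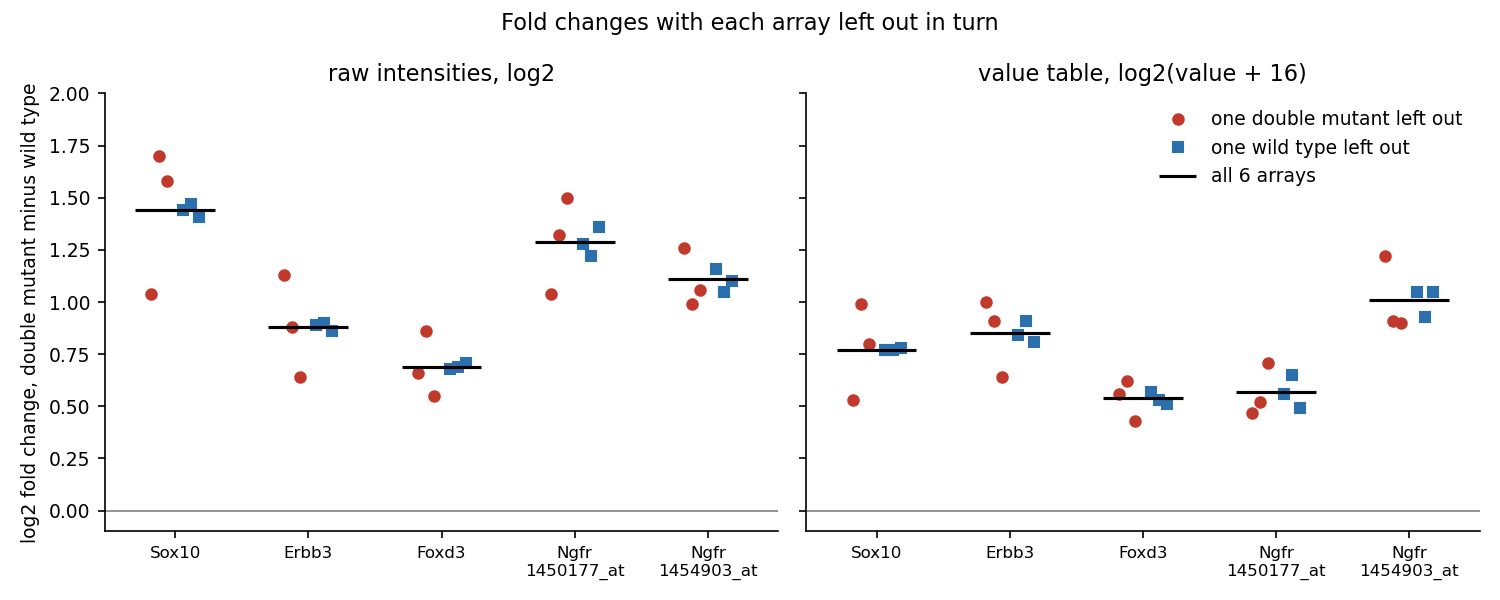
Log2 fold change, double mutant minus wild type, of each probe set with all 6 arrays (black line) and with each array left out in turn (red circles, a double mutant left out; blue squares, a wild type left out), in the raw intensities (left) and the value table (right). All points lie above 0, as they must where no mutant overlaps a wild type. Leaving out a mutant moves Sox10 between 1.04 and 1.7 in the raw intensities, and leaving out a wild type moves it between 1.41 and 1.47.

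Other genes of the glial and crest programme were sought in 2 lists. Over the whole array 2.35% of probe sets were listed and 60.8% of the listed ones were higher; the lists count genes, many with several probe sets, so their shares are not on the same footing. Of 30 genes of glia and Schwann cell precursors, 6 were listed, or 20%, all as higher: the 4 above, Ets1 and Egr2, so 2 genes are added to those already chosen. Ets1, an ETS factor of cranial crest and endothelium, had 2 probe sets. Its 1422028_a_at gave raw intensities of 1317, 575 and 564 in double mutants 1, 2 and 4 and 368, 290 and 317 in wild types 4, 5 and the unnumbered one, and 1422027_a_at gave 322, 424 and 358 against 262, 250 and 245. As with Ngfr, double mutant 1 was the highest mutant at one probe set and the lowest at the other.

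Egr2, a factor of myelinating Schwann cells, was near the bottom of the scale with raw means of 11.7 ± 1.2 in double mutants and 9.01 ± 0.498 in wild type (SD, n = 3 each). Its value table log2 fold change was 0.11, and double mutant 1, at 0.8, lay below every wild type there. The other 24 genes of the list, among them Fabp7, Cdh19 and S100b, have no named probe set in the files used, so no level was read for them and the glial label rests on the listed genes. Over the 8 listed probe sets the median log2 fold was 0.99, and their summed raw intensity was 1617 to 2257 in double mutants and 834 to 953 in wild type. Most of this sum was Ets1 on every array. In double mutant 1 its 2 probe sets read 1317 and 322, against 95.7 for Sox10, 64.9 for Erbb3, 17.3 for Foxd3 and 328 and 99 for Ngfr. The list holds the 4 genes themselves and genes enter it by being listed, so neither count nor median is a test.

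Of 30 crest transcription factor genes 8 were listed, 5 higher and 3 lower. Besides Sox10, Foxd3 and Ets1 the higher ones were Snai1, a repressor used in epithelial to mesenchymal transition, and Pax7, a paired-box factor. Snai1 raw intensity was 1688 ± 126 in double mutants and 1080 ± 231 in wild type (SD, n = 3 each), with a value table log2 fold change of 0.59. Pax7 stood at 9.06 ± 0.431 in double mutants and 6.93 ± 0.84 in wild type, and its value table log2 fold change was 0.05, with overlapping groups. The lower ones were Msx1, Id4 and Sox6. Id4, an inhibitor of helix-loop-helix factors, had 148 ± 31.5 in double mutants and 314 ± 37.8 in wild type, a log2 fold change of -1.11, and -1.13 in the value table. Msx1, a homeobox factor of arch mesenchyme, had a log2 fold change of -0.65, and -0.48 in the value table. Sox6, a SOX factor without an activation domain, had one of -0.48 through a probe set whose suffix warns of cross-hybridisation. That of Sox6 in the value table was -0.11, and its groups overlapped. The median log2 fold of the 9 listed probe sets was 0.54.

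Of 36 genes of neuregulin and ErbB signalling 3 were listed, or 8.33%, all higher, which with 60.8% of all listed probe sets higher says little about the family: Erbb3, the receptor gene Egfr and the neuregulin gene Nrg2. Egfr at 1435888_at had raw intensities of 228, 102 and 169 in double mutants 1, 2 and 4 and 45, 44.4 and 35.7 in wild types 4, 5 and the unnumbered one. All mutants were above all wild types there. The authors' deposited table gives it as 3.81-fold higher with p = 0.00568. In the value table, with no filter, its log2 fold change was 1.53, with a limma p of 0.000376, unadjusted, and an adjusted limma p of 0.857. A second, dim Egfr probe set, 1457563_at, had 18.4 ± 4.47 in double mutants and 11.8 ± 1.17 in wild type (SD, n = 3 each). Nrg2 had 37.2, 29.7 and 50.1 in double mutants 1, 2 and 4 and 22.3, 26.8 and 22.3 in wild types 4, 5 and the unnumbered one, and in the value table double mutant 2 lay level with the lowest wild type at 0.6. The median log2 fold over the 4 listed probe sets was 0.78. Erbb2 and Erbb4, the partner and the other neuregulin receptor of Erbb3, and Nrg1 have no named probe set here.

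Of 26 genes of neurotrophins and p75 signalling 3 were listed, Ngfr and Ntrk2 as higher and Ripk2 as lower, with a median log2 fold of 0.94 over 4 probe sets. Ntrk2, the BDNF receptor TrkB, was dim, at 20.5, 21.1 and 16.3 in double mutants 1, 2 and 4 and 10.4, 11.6 and 11.9 in wild types 4, 5 and the unnumbered one. Ripk2, a kinase that binds the p75 death domain, had 155 ± 16.2 in double mutants and 208 ± 12.4 in wild type (SD, n = 3 each), a log2 fold change of -0.42. The value table log2 fold change was 0.22 for Ntrk2 and -0.13 for Ripk2, whose groups overlapped there. With no filter in that table, the adjusted limma p was 0.857 or above for every listed gene of these lists.

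Markers of the other cells that a cut through the arch can hold were listed at shares of 0% to 20% of a list's genes. The highest was that of pericytes and smooth muscle. The arch mesenchyme list was at 20% too, and that of crest transcription factors, which holds Sox10 and Foxd3, at 26.7%. The 20% of the glial list counts Sox10, Erbb3, Foxd3 and Ngfr themselves, so it cannot be set beside these shares. Of 26 neuronal genes Nefm, a neurofilament subunit, and Ntrk2 were listed, both higher, with summed raw intensities of 47.3 to 48.9 in double mutants and 24.5 to 29.6 in wild type. Nefm had 28.9 ± 3.23 in double mutants and 16.4 ± 2.04 in wild type (SD, n = 3 each), and its groups did not overlap in the value table either, at 9.3, 16 and 19.7 in double mutants 1, 2 and 4 and 5.7, 1.2 and 4.4 in wild types 1, 4 and 5. Of 10 pericyte and smooth muscle genes Pdgfrb and Tagln were listed as higher, with sums of 2729 to 3140 in double mutants and 1935 to 2175 in wild type. In the value table the log2 fold change of Tagln was 0.11 and its groups overlapped. Pdgfrb, also a gene of crest mesenchyme, was bright at 2770 ± 239 in double mutants and 1973 ± 115 in wild type.

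Of 12 muscle precursor genes Msc and Pax7, or 16.7%, were listed as higher, with sums of 63 to 77.6 in double mutants and 49.3 to 56.9 in wild type. In the value table their log2 fold changes were 0.21 and 0.05, and the groups of both overlapped. Of 17 endothelial genes Erg was listed as higher, at 92.5 to 106 in double mutants and 64.6 to 83.8 in wild type, but its value table log2 fold change was -0.42, the 1 opposite sign among 21 listed probe sets outside the 4 genes. A shared sign did not mean separate groups, as the overlap of Egr2, Tagln, Msc and Pax7 shows. Of 11 neural tube genes Lhx2 was listed as lower, at 39.9 to 65.6 in double mutants and 101 to 173 in wild type. None of the 10 melanoblast, 16 blood or 18 epithelial genes was listed. No listed marker was at 0 on any array. The part of these cells in the higher Sox10, Erbb3, Foxd3 and Ngfr was not tested.

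Of the 20 genes that mark arch mesenchyme 4 were listed, Snai1 as higher and Lhx8, Barx1 and Msx1 as lower. Their summed raw intensity was 7559 to 10106 in double mutants and 15113 to 15998 in wild type. Much of that difference was Lhx8, itself a targeted gene: without it the sum was 4381 to 5319 in double mutants and 5710 to 7022 in wild type. Markers such as Twist1, Prrx1 and Pdgfra have no named probe set here, so the tissue label could be checked against these 4 alone. All 4 were above a raw intensity of 100 on every array.

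**Figure D5:**
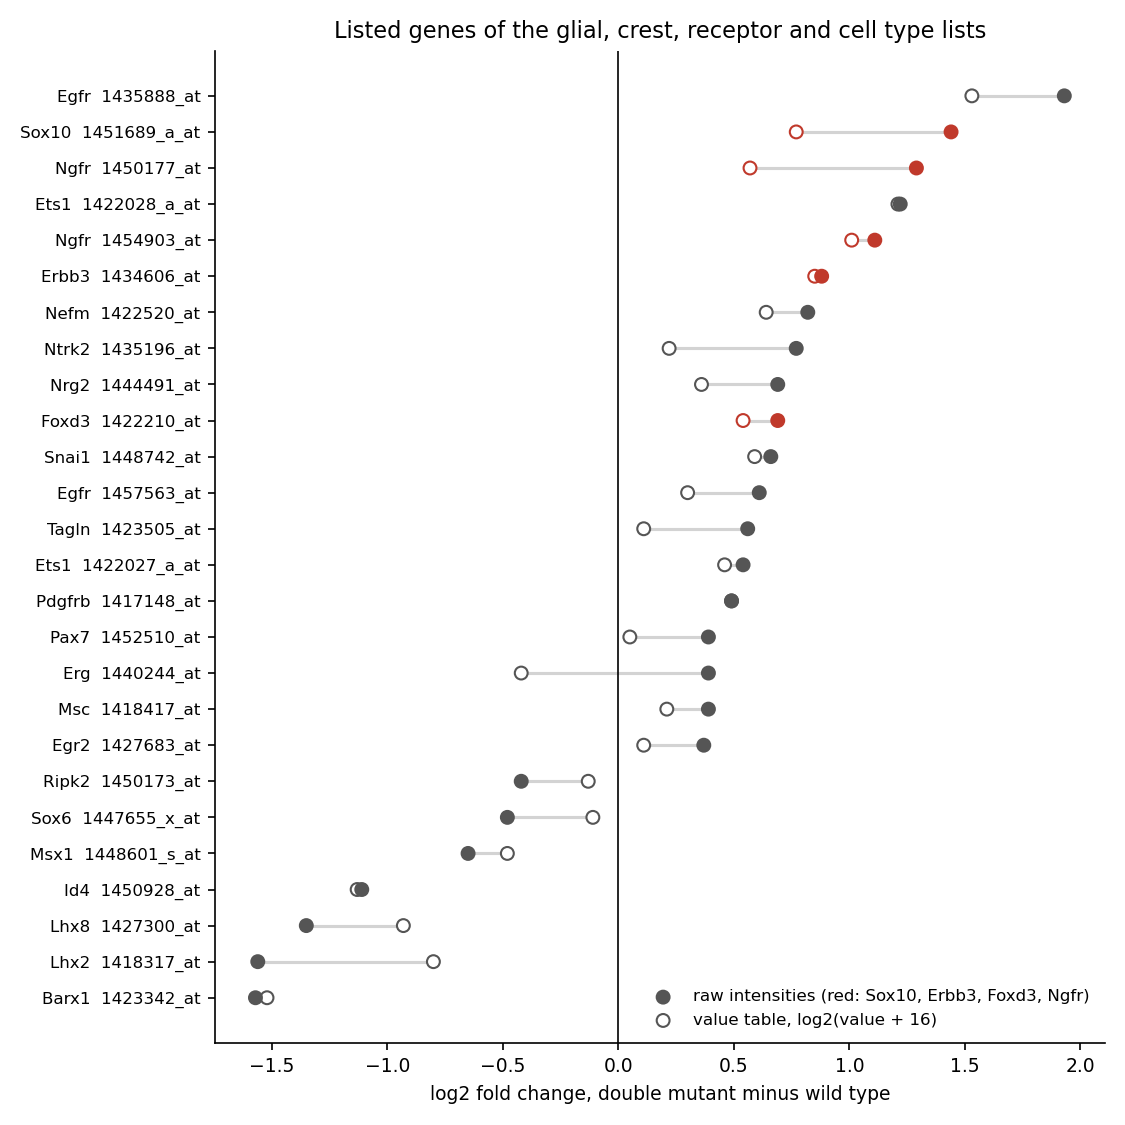
Log2 fold change, double mutant minus wild type, of the 26 listed probe sets of all lists, from the raw intensities (filled) and from the value table as log2(value + 16) (open), joined by a line, with Sox10, Erbb3, Foxd3 and Ngfr in red. Egfr 1435888_at is at the top at 1.93 and 1.53, Sox10 next at 1.44 and 0.77, and Erg is the one whose 2 values lie on opposite sides of 0.

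Listed genes with a profile like that of each probe set were found by the root mean square difference of log2 raw intensity, each relative to its own wild-type mean, over the 6 arrays. The candidates were 420 probe sets of 376 genes with a mean over 100 in either group. Nearest to Sox10 was Figf, a growth factor of lymphatic and blood vessels now called Vegfd, with a difference of 0.111 log2 units, then Naalad2 at 0.164 and Ppp1r3b at 0.175. Figf had raw intensities of 5194, 2071 and 2160 in double mutants 1, 2 and 4 and 1081, 1207 and 1143 in wild types 4, 5 and the unnumbered one, so it shared the high double mutant 1. Naalad2 and Ppp1r3b were highest in double mutant 1 as well, the array that stood apart on its control probe sets.

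Nearest to Erbb3 were Rhoj at 0.126, Zfp503 at 0.237 and Bgn at 0.252. For Foxd3 they were Slc8a2, a sodium-calcium exchanger of neurons, at 0.083, Bai2 at 0.108 and Cited2 at 0.128. For Ngfr 1450177_at they were Sdk2, a cell adhesion protein, at 0.114, Ddhd1 at 0.162 and the Notch ligand Jag1 at 0.169, and for Ngfr 1454903_at Foxp1 at 0.162, Kcnd3 at 0.196 and Zfp503 at 0.23. Sdk2, Ddhd1 and Jag1 had double mutant 1 as the highest mutant. The genes nearest to Erbb3 and to Ngfr 1454903_at had it as the lowest. The part of that array in these matches was not tested. Among the 5 probe sets themselves the differences were larger, from 0.263 between Erbb3 and Ngfr 1454903_at to 0.762 between Sox10 and Erbb3. The 2 probe sets of Ngfr differed by 0.442. All candidates had been listed on these arrays, and the nearest of many profiles is close by selection.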

How the data were processed

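Per the labels, each array is 1 embryo's laser-dissected mesenchyme. The authors deposited a table of linear intensity for all probe sets (RMA is the tool named, per the submitters' processing notes; linear values with zeros are not what RMA gives, so the summary method is unknown) and a table of p-values (unpaired, uncorrected), absolute fold and raw intensity, kept at p 0.05 and fold 1.25, per the file headers. Another 6 per-sample columns were not used. The deposited p and fold were recomputed from the raw columns within 5.14e-07 and 1.63e-06.

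For the value table, 64 control probe sets were dropped, 16 was added and log2 taken, and limma 3.58.1 (R 4.3.3) was fitted with group alone and Benjamini-Hochberg adjustment across all probe sets passing a mean of 100, checked on simulated data. Python 3.11.15 served otherwise. Genes were named from the deposited table only. The members, lists, constant and naming rule (the members, every listed gene of the lists, and the 3 nearest profiles per probe set) were chosen with earlier results of these data known. Alternatives covered scaling, constant, filter, array weights, single arrays and a block. Nothing says that embryos came from separate litters, so p-values measure the spread between these samples.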

Additional observations from a re-analysis of the deposited data

How the results depend on the processing

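No mutant overlapped a wild type at the 5 probe sets, so leaving out or weighting arrays, or changing the constant or filter, could not turn the sign. Under the alternatives tried, 155 recomputed log2 fold changes of the 5 probe sets were all positive. Of the 60 that came with a test, 1 had an adjusted p under 0.05; the other 95, on raw intensities or below the filter, had none. That was Ngfr 1454903_at with array quality weights, at 1.25 with an adjusted limma p of 9.48e-05, where 1619 probe sets passed against 0 without weights. The weights gave double mutant 2 a weight of 20 and double mutant 1 one of 0.0375, and their estimate stopped before it converged. With weights but no filter, tried after seeing the data, 9 passed and its adjusted p was 0.0554. Sox10 was then 0.42; with weights alone Sox10 was 0.34 and Foxd3 0.37. The added constant set the size in the value table: with 1 the log2 fold change was 2.96 for Sox10, 1.45 for Erbb3, 2.28 for Foxd3 and 1.72 for Ngfr 1450177_at, and with 64 it was 0.25, 0.38, 0.16 and 0.19. Adding 16 to the raw intensities gave 0.32 for Foxd3. Leaving out 1 array gave 0 to 9 probe sets past adjustment, 9 without double mutant 1 and 2 without double mutant 4. With the replicate number as a block 2 probe sets passed; Ngfr 1454903_at, the one of the 5 tested in that fit, had an adjusted p of 0.997. Whether the numbers pair the embryos is not stated. Deviations of the same-numbered arrays correlated at 0.065 and -0.079 across probe sets, and those of other pairs at -0.095 to 0.14. This cannot decide it, since the value that a true pair would give is not known. The raw columns share 1 number, so no block was fitted there, and the fit on the normalised columns was not run. Low intensity limits Sox10, Foxd3 and Ngfr 1450177_at most, whose wild-type values lay near the bottom of the scale. The cause of these shifts, other than the constant, was not tested.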
